A study of Mus musculus with 6 samples.

Results

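Proteins that enter the secretory pathway fold inside the endoplasmic reticulum (ER), and 45 genes of that folding system and of its stress response were examined in the kidneys of 24-month-old mice. Members were taken by symbol: 12 chaperones and their partners, 9 enzymes of disulfide bond and proline folding, 7 genes of the PERK branch, 2 of the IRE1 branch, 2 of the ATF6 branch, 10 of ER-associated degradation (ERAD) and 3 of the translocon. A gene was tested when its FPKM (fragments counted relative to transcript length and to the library's mapped total), summed over its listed transcripts, reached 1 in at least 3 libraries. This held for 42 of the 45 members and for 11698 of 13696 genes in all. Trib3, Chac1 and Derl3 were too low to test, and each of the 42 tested members reached 1 FPKM in all 6 libraries.

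Total kidney RNA was sequenced from 3 WT samples and 3 samples with the genotype fat-1 knockin (called fat-1). The fat-1 gene comes from a nematode worm and encodes an enzyme that makes omega-3 fatty acids out of omega-6 ones, a step mammals lack. The labels give no strain, sex, diet, insertion site or promoter, and no treatment is named for either group. Whether each sample is a different animal is not stated, and the p-values then describe only sample-to-sample spread, which may be technical. Reads of the inserted gene were not analysed here, and the genotypes rest on the labels alone.

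As background, BiP (Hspa5) and GRP94 (Hsp90b1) hold unfolded chains in the ER lumen, calreticulin and calnexin hold glycoproteins, and protein disulfide isomerases form and rearrange disulfide bonds. When unfolded protein accumulates, the sensors PERK, IRE1 and ATF6 signal to the nucleus: PERK slows translation and favours ATF4 and CHOP, IRE1 splices the Xbp1 messenger RNA, and ATF6 is cut to release a transcription factor. ATF6 and the spliced form of XBP1 act on ER stress elements in the promoters of chaperone and degradation genes. Kidney tubule cells make large amounts of membrane transporters and receptors, all of which pass through this system.

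The promoters are shown first, because shared elements are what the ER stress response is known to act on. RefSeq windows (build GRCm38.p6, 250 bases before to 50 bases after the annotated start) were found for 39 of the 45 members. They were not used for Hyou1, Manf, Sil1, Atf6, Derl1 and Sec61a1. The ER stress element (ERSE) was searched on both strands as CCAAT, then 9 bases of any kind, then CCACG. It was found in 10 of the 39 members, against 0.137% of the 27025 genes with a window (0.119% of all windows). The members were chosen as ER folding and stress-response genes, so a high share among them follows from that choice and is no result of these libraries. Each match follows 5′ to 3′ on the strand of the gene, with the fixed letters in capitals, so that an element on the opposite strand reads CGTGG first. Positions are bases from the start.
Hspa5, from -65 to -47: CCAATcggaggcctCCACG
Hsp90b1, from -212 to -194: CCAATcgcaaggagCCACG
Hsp90b1, from -107 to -89, opposite strand: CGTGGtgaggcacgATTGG
Calr, from -162 to -144, opposite strand: CGTGGtcgaccctcATTGG
Canx, from -145 to -127: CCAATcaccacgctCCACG
Dnajc3, from -105 to -87: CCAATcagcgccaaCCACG
Creld2, from -126 to -108, opposite strand: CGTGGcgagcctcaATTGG
Pdia6, from -98 to -80: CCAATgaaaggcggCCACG
Ero1lb, from -201 to -183, opposite strand: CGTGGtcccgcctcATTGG
Syvn1, from -44 to -26: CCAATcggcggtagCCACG
Derl3, from -156 to -138, opposite strand: CGTGGgacttccccATTGG

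Other elements were rarer among the members. The shorter ERSE-II (ATTGG, 1 base of any kind, CCACG, both strands) was found in Dnajb11, from 7 to 17, as ATTGGcCCACG and in Herpud1, from -52 to -42, as ATTGGgCCACG, against 0.0444% of genes. The core TGACGTG, part of the element bound by ATF6 and XBP1, was found in 1 member, Hspa5, against 2.22% of genes. TTGCATCA, an amino acid response element of the kind bound by ATF4 dimers, was found in Chac1 and Herpud1, against 1.03% of genes. A match describes letters in a window and does not show binding. The 250 bases before the start follow for Hspa5, the reference chaperone, and for 4 genes with an ERSE whose FPKM was lower in fat-1 kidney at an unadjusted p under 0.05. Capitals mark the elements.
Hspa5, chr2:34771840-34772089, plus strand: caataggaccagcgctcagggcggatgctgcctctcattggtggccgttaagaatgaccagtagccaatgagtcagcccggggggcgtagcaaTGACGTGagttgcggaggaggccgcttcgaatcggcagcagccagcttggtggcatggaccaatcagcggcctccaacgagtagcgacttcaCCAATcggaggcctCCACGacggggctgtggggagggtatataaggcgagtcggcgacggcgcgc
Hsp90b1, chr10:86705445-86705694, minus strand: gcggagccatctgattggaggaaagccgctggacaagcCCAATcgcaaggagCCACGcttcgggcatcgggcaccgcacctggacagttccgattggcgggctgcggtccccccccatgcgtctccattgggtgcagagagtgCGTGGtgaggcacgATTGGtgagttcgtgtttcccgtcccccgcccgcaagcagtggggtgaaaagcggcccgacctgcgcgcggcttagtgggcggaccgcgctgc
Calr, chr8:84846932-84847181, minus strand: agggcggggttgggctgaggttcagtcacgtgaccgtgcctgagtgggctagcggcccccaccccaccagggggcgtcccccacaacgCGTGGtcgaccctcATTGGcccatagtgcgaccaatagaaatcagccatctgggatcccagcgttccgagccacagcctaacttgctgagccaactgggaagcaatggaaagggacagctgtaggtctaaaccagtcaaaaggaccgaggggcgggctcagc
Creld2, chr15:88819396-88819645, plus strand: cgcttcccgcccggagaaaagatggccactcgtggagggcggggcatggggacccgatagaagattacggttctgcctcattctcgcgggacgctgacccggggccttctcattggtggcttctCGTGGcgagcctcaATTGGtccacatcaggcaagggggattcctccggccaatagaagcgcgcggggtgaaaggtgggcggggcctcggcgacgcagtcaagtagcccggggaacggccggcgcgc
Pdia6, chr12:17266339-17266588, plus strand: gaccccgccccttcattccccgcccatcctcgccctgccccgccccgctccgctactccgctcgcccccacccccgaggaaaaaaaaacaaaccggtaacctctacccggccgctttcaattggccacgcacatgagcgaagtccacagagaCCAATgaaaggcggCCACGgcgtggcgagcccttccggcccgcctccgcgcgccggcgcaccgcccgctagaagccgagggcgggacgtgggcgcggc

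Summed FPKM was between 387488 and 431081 per library, with 12.1% to 16.7% of it from mitochondrially encoded genes. The depth in reads is unknown. WT replicate 1 stood apart: its summed macrophage markers were at 880 FPKM against 100.3 to 209 elsewhere, its plasma and B cell markers at 393 against 71.2 to 128, and its T cell markers at 29.8 against 3.51 to 9.32. Ms4a1 and Tnfrsf17 were at 0 in at least 1 library, and so was Cd8a. Kidney markers were present in every library, with proximal tubule sums of 3028 to 4050 in WT and 2669 to 3631 in fat-1. Erythrocyte sums were at 534 in fat-1 replicate 1, 22.5 and 7.13 in the other fat-1 libraries and 131 to 235 in WT. Endothelial sums were 63.5 to 75.9 in WT and 138 to 191 in fat-1, podocyte sums 58.1 to 68.5 and 87.6 to 102.0, and intercalated cell sums 98.5 to 105 and 61.9 to 66.4. All 6 endothelial and 4 of 5 podocyte markers were higher at an unadjusted limma p under 0.05, and 4 of 5 intercalated markers were lower. Of all tested genes, 5.8% were higher and 4.16% lower at that p. Of 6 fibroblast and pericyte markers, 2 were lower and 1 higher. Among 8 proximal tubule, 5 thick ascending limb and 5 principal cell markers, 1 in each list was lower. Distal convoluted tubule sums were 298 to 447 in WT and 165 to 258 in fat-1, and 2 of 4 of these markers were lower, with Calb1 at 124 ± 28.3 against 37.0 ± 11.9 FPKM. The part of these cell types in the values of the ER genes was not tested. In whole kidney, fewer cells of a type and less RNA per cell cannot be told apart.

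Among the members, several chaperones, folding enzymes, ERAD genes and translocon subunits had lower FPKM in fat-1 than in WT kidney. The groups overlapped in every tested gene of the PERK, IRE1 and ATF6 branches, in part of the folding genes and in most ERAD genes. Of 9 tested ERAD genes, 1 was lower at an unadjusted limma p under 0.05, and 2 were lower without overlap between groups. Summed over all 45 members, FPKM was 2555, 2678 and 2981 in the WT libraries and 2240, 2325 and 2397 in the fat-1 libraries, 15.2% lower in the mean (2738 ± 219 against 2321 ± 78.4, SD over 3 libraries) and with no overlap. On the log2(FPKM + 1) scale, the fat-1 minus WT difference was negative for 31 of 42 tested members and positive for 11, with a median of -0.16. Over all tested genes 48.8% of the differences were negative and the median was 0.0059. The folding enzymes had a median of -0.10, nearer to 0 than the ATF6 (-0.16) and IRE1 (0.20) branches. Among 37 folding factors outside the members the median was 0.01, with 16 differences negative.

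No member passed an adjusted p of 0.05 in limma, where 21 of all 11698 tested genes did (0.18%); the smallest adjusted p of a member was 0.118, for Sdf2l1. At an unadjusted limma p under 0.05, 10 of 42 members were lower (23.8%), against 4.16% of all tested genes. In the other direction 0 members were higher, against 5.8% of all tested genes. All 3 fat-1 libraries lay below all 3 WT libraries for 13 members (31.0%), against 6.86% of all tested genes. They lay above for 2 members, Dnajb9 and Ero1l (4.76%), against 8.33% of all tested genes. The members were chosen with earlier results of these data known, so these shares are a description and do not test the set against all genes. The 10 members that were lower are Sdf2l1, Pdia6, Dnajb11, Calr, Sec61b, Sec61a1, Creld2, Pdia3, Edem1 and Hsp90b1. Without WT replicate 3 the lower members numbered 6, against 2.96% of all tested genes. Hsp90b1, Creld2, Pdia3 and Edem1 no longer reached p under 0.05. Without WT replicate 1 the lower members numbered 9, against 4.75% of all tested genes, with Hspa5 added and Pdia3 and Edem1 lost. Without fat-1 replicate 1, the library with the highest erythrocyte sum, they numbered 8, of which 6 were among the 10. In that fit 3.75% of all tested genes were lower.

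**Figure D1:**
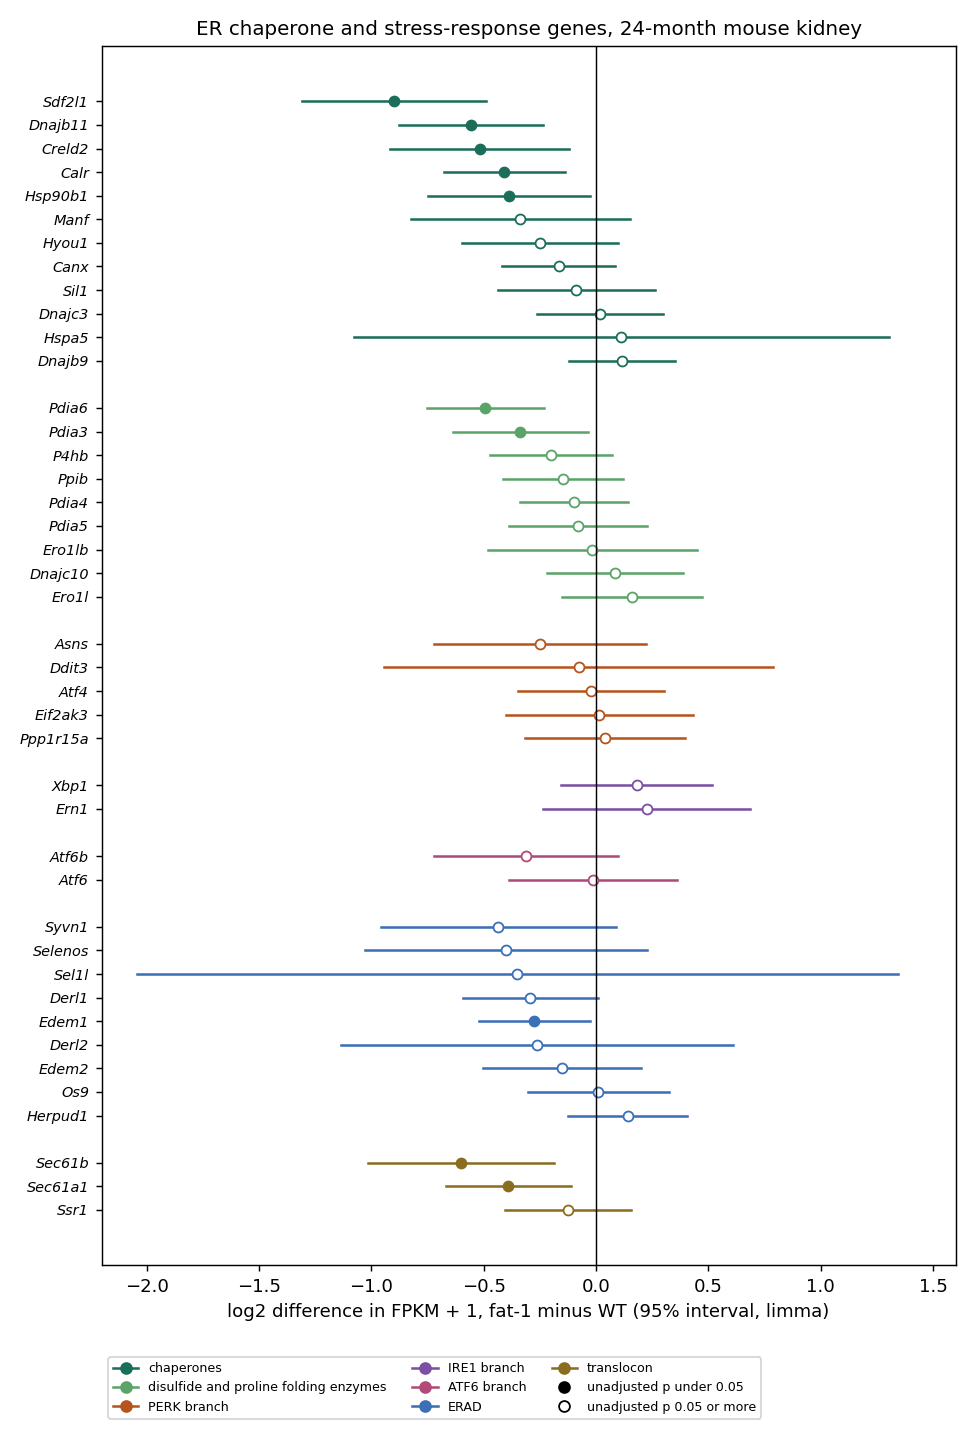
Log2 difference in FPKM + 1 (fat-1 minus WT, horizontal axis) with its 95% interval from limma, for the 42 tested members grouped by role. Filled points have an unadjusted p under 0.05, and all 10 of them lie to the left of 0, among chaperones, disulfide enzymes, ERAD and the translocon.

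Chaperones and their partners made up 5 of those 10 genes. Their summed FPKM was 1049, 1237 and 1371 in WT and 935, 1016 and 1016 in fat-1, or 1219 ± 162 against 989 ± 46.7 (SD over 3 libraries). All 3 fat-1 sums lay below the lowest WT sum. Of the 12 genes, 9 had a negative difference, with a median of -0.29 and a range from -0.90 to 0.11.

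Sdf2l1 (chr16:17130138-17132383 on mm10), a partner of ER J-domain proteins in the BiP cycle, had the largest difference among the members. Its FPKM was 15.8, 11.2 and 16.8 in WT and 6.72, 7.32 and 7.75 in fat-1. The groups did not overlap, and the mean was 14.6 ± 3.02 against 7.26 ± 0.517. On the log2 scale the difference was -0.90 ± 0.17 (SE; 95% interval -1.31 to -0.49; unadjusted p = 0.00135, adjusted p = 0.118).

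Dnajb11 (chr16:22857845-22879634), a J-domain co-chaperone that delivers unfolded chains to BiP, had FPKM of 58.5, 69.7 and 78.5 in WT and 46.1, 48.5 and 44.2 in fat-1. Every fat-1 value was below every WT value, and the log2 difference was -0.56 ± 0.14 (SE; 95% interval -0.88 to -0.24; unadjusted p = 0.00473, adjusted p = 0.192). In Dnajc3, another J-domain partner of BiP, which carries an ERSE, FPKM was 40.9, 46.1 and 45.3 in WT and 40.3, 44.9 and 48.9 in fat-1. The groups overlapped, and the log2 difference was 0.02 ± 0.12 (SE).

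Calr (chr8:84841850-84846934), the lumenal lectin chaperone calreticulin, was the most abundant member, with a mean of 352 FPKM over all libraries. It stood at 390.0, 379 and 435 FPKM in WT and 295, 296 and 314 in fat-1. The 3 fat-1 values were close together and all below WT, and the log2 difference was -0.41 ± 0.11 (SE; 95% interval -0.68 to -0.14; unadjusted p = 0.00911, adjusted p = 0.259). Canx, its membrane-bound counterpart calnexin, had 137, 150 and 144 FPKM in WT and 121, 131 and 131 in fat-1. These groups did not overlap either, but the log2 difference of -0.16 had an unadjusted p of 0.164.

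Creld2 (chr15:88819646-88826681), an ER protein with a disulfide isomerase activity and a known ER stress target, had FPKM of 31.9, 30.0 and 42.5 in WT and 21.7, 22.3 and 27.6 in fat-1. The highest fat-1 value was below the lowest WT value, with a log2 difference of -0.52 ± 0.17 (SE; unadjusted p = 0.0181, adjusted p = 0.344). Hsp90b1 (chr10:86690840-86705509), the HSP90 family chaperone of the ER with 2 ERSE matches in its window, had 211, 213 and 252 FPKM in WT and 144, 185 and 189 in fat-1. The groups did not overlap, and the log2 difference was -0.39 ± 0.15 (SE; unadjusted p = 0.038, adjusted p = 0.46).

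Hspa5 (chr2:34771970-34777547), the gene of BiP, did not follow these genes in all libraries. Its FPKM was 60.4, 227 and 221 in WT and 148, 174 and 151 in fat-1. WT replicate 1 was the lowest of the 6 libraries and the other WT replicates were the highest. The log2 difference was 0.11 ± 0.50 (SE; 95% interval -1.08 to 1.30; unadjusted p = 0.826, adjusted p = 0.982). Without WT replicate 1 it was -0.51, with an unadjusted limma p of 0.008 and an adjusted p of 0.186. Leaving out the WT library with the lowest Hspa5 value by itself moves the difference down. In that fit 4.75% of all tested genes were lower at an unadjusted p under 0.05, against 4.16% with all 6 libraries. In WT replicate 1 the transcript Hspa5-202 held 50.2% of the gene's FPKM, against 97.2% to 97.7% in the other libraries, and Hspa5-201 stood at 30.1 FPKM, against 3.45 to 6.38.

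Among the remaining chaperone-group genes, Hyou1, an exchange factor for BiP, had means of 15.1 ± 1.35 FPKM in WT and 12.6 ± 1.92 in fat-1, with overlapping libraries. Sil1, also an exchange factor, had 30.3 ± 4.55 and 28.3 ± 2.89. Manf, an ER-resident factor that can be secreted, was at 50.3 in WT replicate 3 and between 24.9 and 33.7 in the other libraries. Dnajb9, which keeps IRE1 inactive through BiP, went the other way, with 33.3 ± 1.49 FPKM in WT and 36.1 ± 1.35 in fat-1. Its libraries did not overlap, and the unadjusted p was 0.287.

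**Figure D2:**
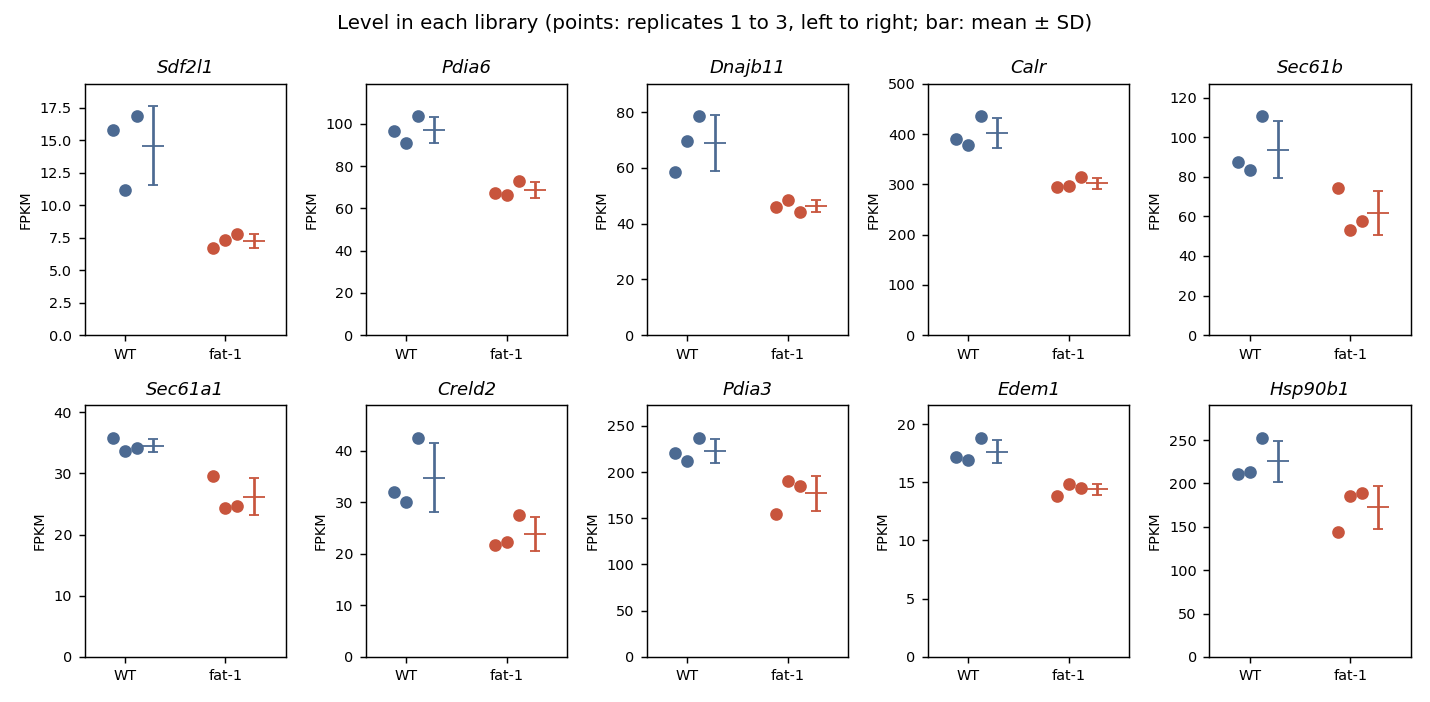
FPKM (vertical axes, from 0) of the 10 members with an unadjusted p under 0.05, in each WT and fat-1 library (points) with mean ± SD (bars). In every panel the 3 fat-1 points lie below the 3 WT points, as for Sdf2l1, with 6.72 to 7.75 in fat-1 and 11.2 to 16.8 in WT.

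Disulfide and proline folding enzymes summed to 817, 812 and 871 FPKM in WT and 703, 699 and 724 in fat-1, without overlap (834 ± 32.4 against 709 ± 13.3, SD over 3 libraries). Of the 9 genes, 7 had a negative difference (median -0.10, range -0.49 to 0.16) and 2 had an unadjusted p under 0.05. Pdia6 (chr12:17266545-17284770), an isomerase that works with BiP and is known to dampen IRE1 and PERK, had FPKM of 96.6, 91.0 and 103 in WT and 67.0, 66.2 and 72.7 in fat-1. The lowest WT value was well above the highest fat-1 value. The log2 difference was -0.49 ± 0.11 (SE; 95% interval -0.75 to -0.23; unadjusted p = 0.00291, adjusted p = 0.157).

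Pdia3 (chr2:121413775-121438687), the isomerase that works with calreticulin and calnexin on glycoproteins, had 221, 212 and 237 FPKM in WT and 155, 190.5 and 185 in fat-1. The groups did not overlap, and the log2 difference was -0.34 ± 0.13 (SE; unadjusted p = 0.0326, adjusted p = 0.441). P4hb, the classical protein disulfide isomerase, had 187, 210.5 and 219.9 FPKM in WT and 183, 172 and 181 in fat-1. All fat-1 values were below WT, but the difference of -0.20 ± 0.11 (SE) had an unadjusted p of 0.123.

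The other enzymes overlapped between groups or differed little. Pdia4 had 61.0 ± 0.979 FPKM in WT and 57.0 ± 3.41 in fat-1, and Pdia5 had 9.34 ± 1.00 and 8.77 ± 0.577. Ppib, the proline isomerase cyclophilin B, had 209 ± 6.90 and 189 ± 14.9. Ero1l, the oxidase that recharges disulfide isomerases, had 8.67 ± 0.969 in WT and 9.79 ± 0.661 in fat-1, without overlap and with an unadjusted p of 0.261. Its paralog Ero1lb and the reductase Dnajc10 had differences of -0.02 and 0.08.

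Translocon subunits, which form or assist the channel through which new chains enter the ER, summed to 139, 131 and 160 FPKM in WT and 119, 89.4 and 95.8 in fat-1, 29.2% lower in the mean and without overlap. Sec61b (chr4:47474658-47483242), the beta subunit of the channel, had FPKM of 87.5, 83.3 and 110.5 in WT and 74.3, 52.9 and 57.9 in fat-1. The groups did not overlap, and the log2 difference was -0.60 ± 0.17 (SE; unadjusted p = 0.0112, adjusted p = 0.281). Sec61a1 (chr6:88503579-88518905), the pore subunit, had 35.8, 33.6 and 34.2 FPKM in WT and 29.6, 24.3 and 24.7 in fat-1. WT values were close together and all above fat-1. The log2 difference was -0.39 ± 0.12 (SE; unadjusted p = 0.0128, adjusted p = 0.296). Ssr1, a subunit of the translocon-associated complex, had 14.7 ± 0.720 and 13.5 ± 1.35 FPKM, with overlap.

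ERAD genes, whose products extract misfolded proteins for the proteasome, had a negative difference in 7 of 9 tested members (median -0.27, range -0.43 to 0.14). The listed ERAD genes summed to 342, 344 and 393 FPKM in WT and 304, 337 and 368 in fat-1, with overlap. Edem1 (chr6:108828674-108859348), a lectin that marks misfolded glycoproteins, had 17.2, 16.9 and 18.8 FPKM in WT and 13.9, 14.8 and 14.5 in fat-1. The groups did not overlap, and the log2 difference was -0.27 ± 0.10 (SE; unadjusted p = 0.0342, adjusted p = 0.442). Derl1, a channel protein of the degradation route, was also separated, at 41.0 ± 2.80 against 33.4 ± 4.05 FPKM, with an unadjusted p of 0.055. In contrast, Herpud1, a stress-induced scaffold with an ERSE-II and an amino acid response element, had 109 ± 4.56 FPKM in WT and 121 ± 9.09 in fat-1, and Os9, a lectin, had 78.4 ± 5.61 and 79.3 ± 10.2.

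Single libraries set the values of several ERAD genes. Sel1l, the adaptor of the ligase complex, had 5.91, 22.1 and 21.9 FPKM in WT and 3.61, 18.3 and 18.8 in fat-1. It was low in WT replicate 1 and fat-1 replicate 1, and the log2 difference was -0.35 ± 0.71 (SE; 95% interval -2.04 to 1.34). It was -0.93 without WT replicate 1 and 0.34 without fat-1 replicate 1. Derl2 was at 35.8 FPKM in WT replicate 3 and 13.8 to 22.2 elsewhere, and its difference of -0.26 became 0.14 without that library. Selenos, a membrane selenoprotein of the same complex, was at 66.6 FPKM in WT replicate 3 and 28.3 to 44.2 elsewhere. Syvn1, the ubiquitin ligase HRD1 with an ERSE close to its start, had 11.4 ± 1.66 and 8.33 ± 2.46 FPKM with overlap (unadjusted p = 0.0893). Edem2 had 15.5 ± 1.86 and 13.8 ± 1.89.

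None of the 5 tested PERK-branch genes reached an unadjusted p under 0.05 with all 6 libraries in the fit, and their median difference was -0.02 (range -0.25 to 0.04). Eif2ak3, the kinase PERK itself, had 9.06, 8.59 and 7.18 FPKM in WT and 7.05, 7.80 and 10.5 in fat-1. The groups overlapped fully, and the 95% interval of the difference ran from -0.40 to 0.43. Atf4, its translationally controlled factor, had 60.7, 46.1 and 59.4 FPKM in WT and 56.4, 51.9 and 54.4 in fat-1. All fat-1 values lay within the WT range (interval -0.35 to 0.30). Ppp1r15a, the phosphatase subunit that ends the response, had 5.83 ± 0.736 and 6.01 ± 0.670 FPKM, and Asns, asparagine synthetase, an ATF4 target, 2.52 ± 0.441 and 1.97 ± 0.497.

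Ddit3, which encodes CHOP, had 29.1, 10.8 and 11.4 FPKM in WT and 12.9, 14.6 and 16.3 in fat-1. WT replicate 1 was the highest library and the other WT replicates the lowest, so that the log2 difference was -0.08 ± 0.36 (SE; 95% interval -0.94 to 0.79). Without WT replicate 1, the library with the highest macrophage, plasma cell and T cell markers, the difference was 0.36. In that limma fit Ddit3 was higher at the unadjusted threshold of 0.05 but did not pass the adjusted one. Of all tested genes, 8.94% were higher at the unadjusted threshold in that fit, against 5.8% with all 6 libraries. The median difference of all tested genes was 0.051 there, against 0.0059. The library left out was the one with the highest Ddit3 value, and whether the change is particular to Ddit3 was not tested. Trib3, a CHOP target, was also highest in WT replicate 1, at 0.912 FPKM, with 0.281 and 0.330 in the other WT libraries and 0.482, 0.618 and 0.683 in fat-1. Chac1, a glutathione-degrading ATF4 target, was at 0.575, 0.0467 and 0.240 FPKM in WT and 0.180, 0.480 and 0.717 in fat-1, and was not tested.

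IRE1-branch genes had higher values in fat-1 kidney but overlapped between groups. Ern1, the sensor IRE1, had 4.64, 3.87 and 2.72 FPKM in WT and 4.37, 4.06 and 4.99 in fat-1 (log2 difference 0.23 ± 0.19, SE; unadjusted p = 0.284). Xbp1, its target, had 67.6, 55.3 and 75.7 FPKM in WT and 70.6, 78.2 and 75.2 in fat-1 (0.18 ± 0.14, SE; unadjusted p = 0.243). WT replicate 2 was the lowest in Xbp1, and WT replicate 3 lay within the fat-1 range. Of the 3 listed Xbp1 transcripts, Xbp1-201 held 86.6% to 95.6% of the FPKM. The smallest intron annotated in Xbp1-201 and Xbp1-204 has 300 bases, and in Xbp1-203 it has 771 bases. None of them has the short intron that IRE1 removes, so the spliced form was not measured.

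ATF6-branch genes are the sensor Atf6 and its relative Atf6b. Atf6 had 10.1, 9.37 and 7.55 FPKM in WT and 7.99, 8.50 and 10.3 in fat-1, with complete overlap (95% interval of the difference, -0.39 to 0.36). Atf6b had 13.6 ± 1.86 FPKM in WT and 10.8 ± 1.95 in fat-1 (log2 difference -0.31 ± 0.17, SE; unadjusted p = 0.114). These values are messenger RNA levels and do not measure cleavage of ATF6, phosphorylation of PERK or splicing by IRE1.

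Set side by side, the median log2 difference was -0.39 for the translocon, -0.29 for the chaperones, -0.27 for ERAD, -0.16 for the ATF6 branch, -0.10 for the folding enzymes, -0.02 for the PERK branch and 0.20 for the IRE1 branch. The ATF6 and IRE1 branches hold 2 genes each, and differences between the groups were not tested. Summed FPKM of the PERK branch was 73.4 to 110 in WT and 83.5 to 90.9 in fat-1. For the IRE1 branch it was 59.2 to 78.4 and 74.9 to 82.3, and for the ATF6 branch 20.9 to 25.3 and 17.0 to 22.2. These sums overlapped between genotypes, as did those of ERAD. Without WT replicate 3 the chaperone median was -0.18 and the ERAD median -0.14. Centred on each gene's mean over the 6 libraries, the chaperone median was 0.00044, 0.11 and 0.34 in the WT libraries and -0.20, -0.075 and -0.054 in the fat-1 libraries. WT replicate 3 was the highest and WT replicate 1 close to fat-1. For the translocon it was 0.21, 0.14 and 0.18 in WT and -0.018, -0.30 and -0.27 in fat-1, with a gap between the groups. For the PERK branch it was 0.15, -0.091 and -0.15 in WT and -0.11, -0.073 and 0.069 in fat-1, with complete overlap. WT replicate 3 was the highest library for 19 of the 42 members, and fat-1 replicate 1 the lowest for 16. The same count over all tested genes was not made, so whether it is particular to the members was not tested. WT replicate 3 also had the largest summed FPKM of the 6 libraries, at 431081.

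**Figure D3:**
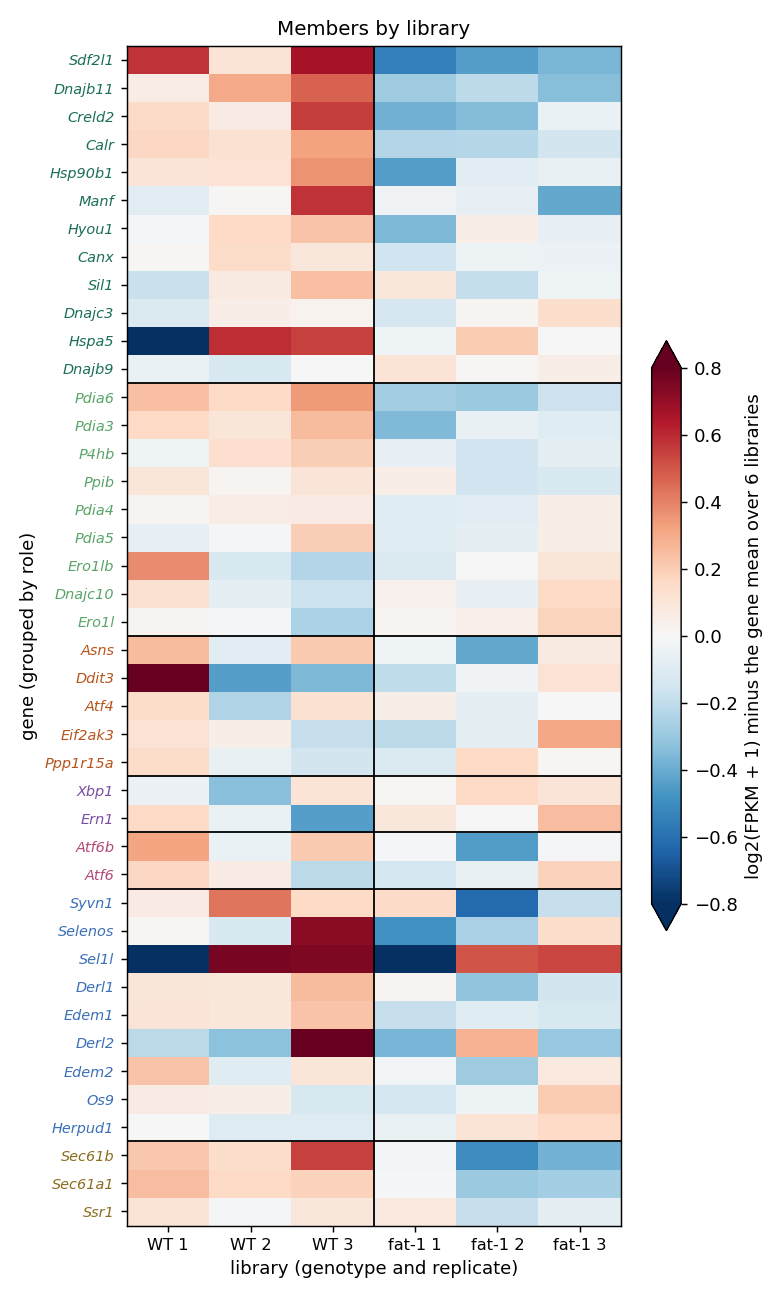
Log2(FPKM + 1) of each tested member minus its mean over 6 libraries (colour, ends at 0.8 either way), with libraries in columns and genes grouped by role in rows. The upper chaperone rows are red in WT and blue in fat-1, while Hspa5 and Ddit3 show WT replicate 1 apart and Sel1l shows WT replicate 1 and fat-1 replicate 1 apart.

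**Figure D4:**
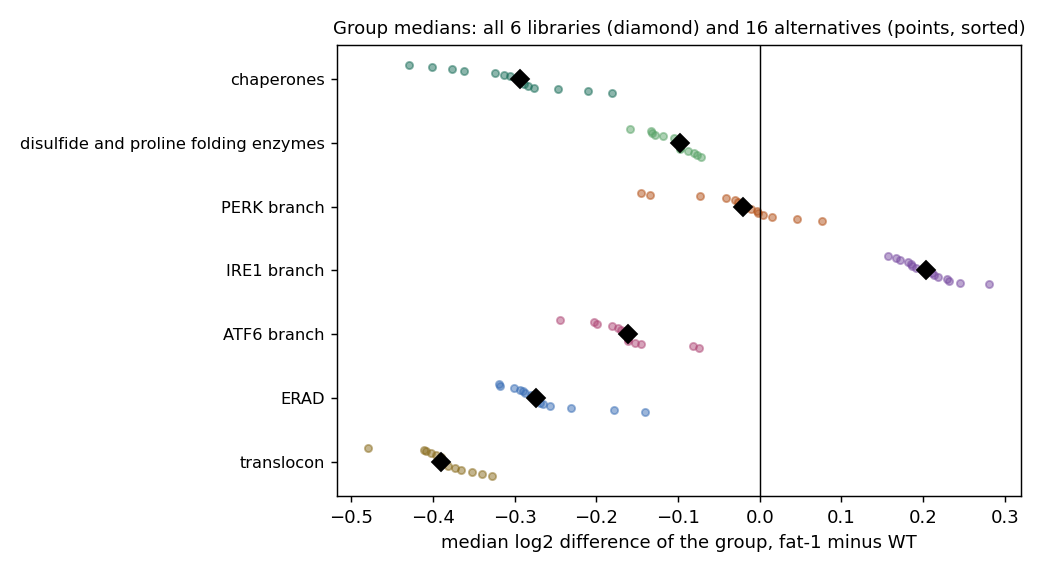
Median log2 difference of each role group (horizontal axis, fat-1 minus WT) with all 6 libraries (diamond) and under 16 other settings (points, sorted by value). The points of 6 groups stay on 1 side of 0, and those of the PERK branch fall on both sides.

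Within a library, ratios of related members do not depend on how that library was scaled. The 5 pairs given here were chosen after their values were seen, and with 3 samples against 3 an exact permutation p cannot go below 0.1. In each pair the first gene was lower at an unadjusted limma p under 0.05 and the second was not. Lower ratios in fat-1 follow in part from that choice. Calr over Canx was 2.86, 2.53 and 3.02 in WT and 2.44, 2.26 and 2.40 in fat-1. Pdia6 over Pdia4 was 1.48 to 1.68 in WT and 1.19 to 1.22 in fat-1. Dnajb11 over Dnajc3 was 1.43, 1.51 and 1.73 in WT and 1.14, 1.08 and 0.905 in fat-1. Both partners of each of these pairs have related roles, and the fat-1 ratios lay below the WT ratios in all 3. Sdf2l1 over Hyou1 (0.724 to 1.16 in WT, 0.515 to 0.642 in fat-1) and Sec61b over Ssr1 (5.73 to 7.35, 4.33 to 4.98) were also separated.

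The members with an ERSE were compared with those without. Of the 9 tested members with the element, 7 had a negative difference and 4 had an unadjusted p under 0.05 (Hsp90b1, Calr, Creld2 and Pdia6), with a median of -0.39 and a range from -0.52 to 0.11. Of the 27 tested members with a window but no ERSE, 18 had a negative difference and 5 had an unadjusted p under 0.05, with a median of -0.13 and a range from -0.90 to 0.23. These 27 include Dnajb11 and Herpud1, which hold an ERSE-II, and Dnajb11 is 1 of the 5. Only exact matches were counted, so variants of the element fall among the 27. Over all tested genes, 4.16% were lower at that p and 48.8% had a negative difference. The split also follows role: Hspa5, Hsp90b1, Calr, Canx, Dnajc3 and Creld2 are chaperones with an ERSE. Every tested PERK- and IRE1-branch gene falls among the 27. Among chaperones without an ERSE, Sdf2l1 (-0.90) and Dnajb11 (-0.56) had larger negative differences than any ERSE member, and Dnajb9 had 0.11. Whether the element matters apart from role was not tested. Sdf2l1, the member with the largest difference, had no match to any element searched. Outside the members, 27 genes had an ERSE and 8 of them were tested: 3 had a negative difference, the median was 0.17, and 0 reached an unadjusted p under 0.05 either way.

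By transcript, 10 of 17119 tested passed an adjusted p of 0.05 in limma (0.0584%), and 0 of the 56 tested among 69 listed member transcripts did. Of the members, 18 have more than 1 listed transcript, with 32 transcripts tested. At an unadjusted p under 0.05, 3 of these 32 were lower (Canx-205, Dnajb11-201 and Sec61b-201), against 3.61% of all tested transcripts, and 0 were higher, against 4.52%. Canx-205, a minor form with 3.46% to 6.50% of the gene's FPKM, had 8.87, 7.74 and 7.89 FPKM in WT and 5.47, 4.54 and 5.41 in fat-1 (unadjusted p = 0.00754). Dnajb11-201, the main form, had 47.4, 68.7 and 77.6 in WT and 39.4, 42.7 and 37.0 in fat-1 (log2 difference -0.66). Dnajb11-204 stood at 10.5, 0.441 and 0.103 FPKM in WT and 6.18, 5.35 and 6.76 in fat-1, so that WT replicate 1 was nearer to fat-1 than to the other WT libraries. For Derl2, the high WT replicate 3 value came from Derl2-207, at 28.8 FPKM there, 17.6 in fat-1 replicate 2 and at most 2.30 elsewhere. The main transcript of Syvn1 was Syvn1-204 in 3 libraries, Syvn1-203 in 2 and Syvn1-207 in 1. How reads were divided between near-identical transcripts was not tested.

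**Figure D5:**
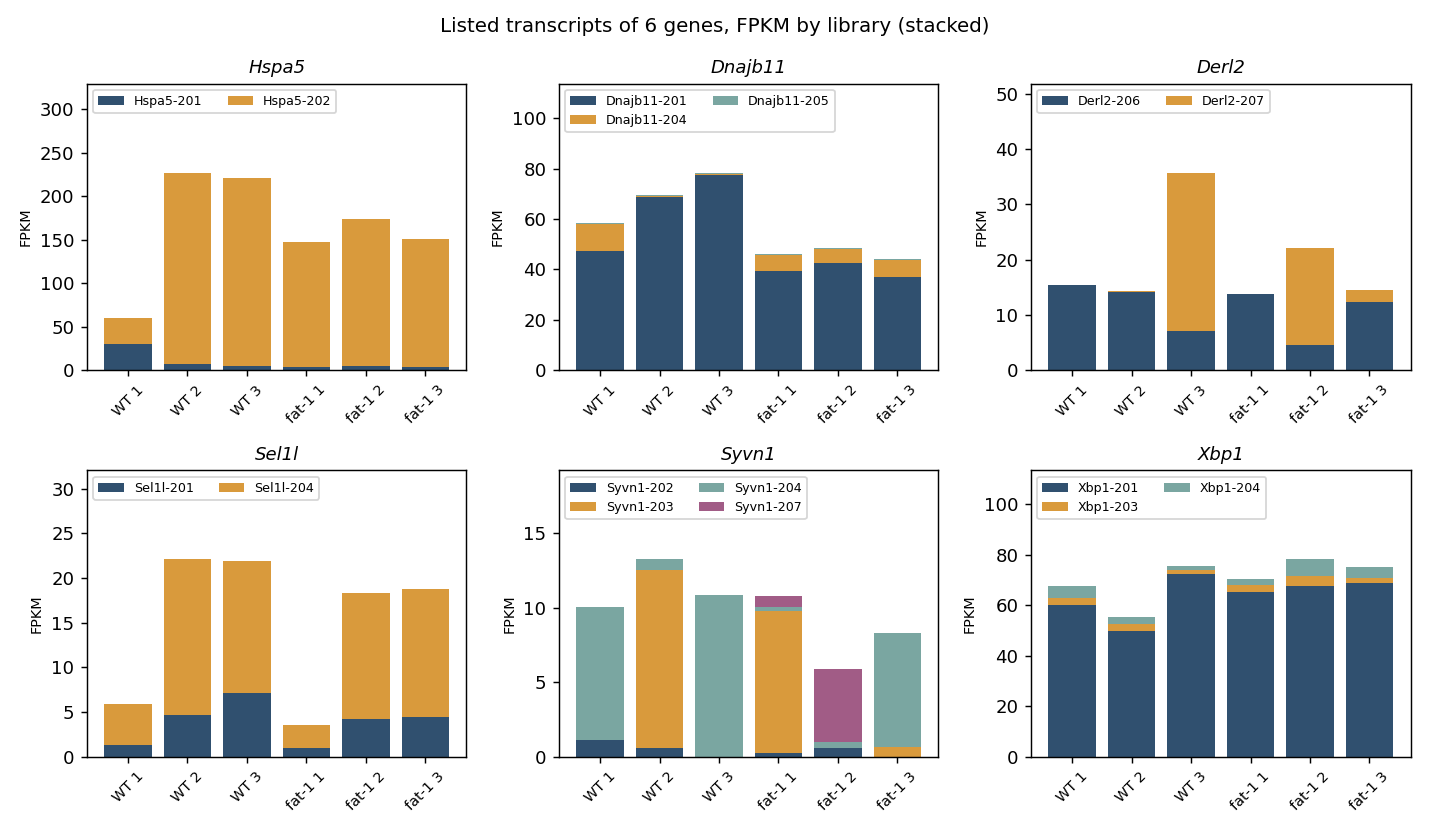
FPKM of the listed transcripts of 6 members, stacked for each library (vertical axes from 0). Hspa5 is low in WT replicate 1, where Hspa5-201 makes up 49.8%, and the main form of Derl2 and Syvn1 switches between libraries, whereas Xbp1-201 leads in all 6.

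The wider ER system was described with 6 further lists, and no gene of them passed an adjusted p of 0.05 in limma. Genes are called lower or higher here at an unadjusted p under 0.05, which 4.16% and 5.8% of all tested genes reached, so that 1 or 2 genes in a list of 12 to 37 are near the background. Among 37 other folding factors, 16 differences were negative (median 0.01), with 4 genes lower and 3 higher. Uggt1, which returns misfolded glycoproteins to calnexin, had 6.26 ± 0.872 FPKM in WT and 2.82 ± 1.96 in fat-1, and Erp44, which retrieves ER proteins, 39.6 ± 2.01 and 33.4 ± 0.544. Txndc11 and Fkbp11 were the other two lower ones. Fkbp9 was higher at 36.7 ± 0.665 against 27.1 ± 2.06, as were Txndc16 and Rcn2. Of 20 other sensors, proteases and factors, Creb3l1, a membrane-bound transcription factor, was lower (2.00 ± 0.340 against 3.52 ± 0.428 FPKM) and 0 were higher.

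Among 29 other ATF4 targets, 15 differences were negative, with 1 gene lower (Aars) and 1 higher. The latter was Psat1, an enzyme of serine synthesis, with 3.27 ± 0.457 FPKM in WT and 5.84 ± 0.205 in fat-1 (unadjusted p = 0.0024, adjusted p = 0.142). Of 24 other ERAD genes, 16 differences were negative (median -0.03), and Ube2g2 and Ubac2 were lower. The list of 33 other translocon, signal peptidase and glycosylation genes, tested as 34 identifiers because Srp54a has 2, had 24 negative differences (median -0.17), with 6 lower and 1 higher. Ssr4 had 74.8 ± 6.11 FPKM in WT and 51.9 ± 9.30 in fat-1, Magt1 32.7 ± 2.69 and 25.4 ± 0.279, Sec11c 22.1 ± 2.44 and 15.9 ± 1.83, and Sec61g, the gamma subunit of the channel, 39.0 ± 4.87 and 29.8 ± 1.57. Srp14, of the signal recognition particle, was the higher one, at 55.4 ± 9.43 against 30.5 ± 3.99. In 12 genes of retrieval and ER-phagy, Sec23b was lower and Retreg1, an ER-phagy receptor, higher (86.5 ± 21.6 against 55.6 ± 5.32).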

How the data were processed

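Total kidney RNA was measured in 6 libraries. The deposited tables, one per sample, give FPKM per transcript as the authors computed it; the sources used here do not name the tool. Per the submitters' processing notes, the build was mm10, and HISAT2 (2.0.5), DESeq2 (1.20.0) and featureCounts (1.5.0-p3) are named without a role. The tables list 27486 transcripts, and none stays under 0.500 FPKM throughout, so minor forms may be missing from gene sums. The read depth behind the FPKM values is unknown, so no counting intervals are given. Symbols turned into dates were restored on 64 lines.

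Values were summed per gene identifier and tested with limma 3.58.1 (R 4.3.3; trended, robust variance; no covariates) on log2(FPKM + 1), which understates changes of low genes. The filter kept genes reaching 1 FPKM in 3 or more libraries, and p-values were adjusted over all 11698 by the Benjamini-Hochberg method (threshold 0.05). A negative difference means lower in fat-1, and 4 residual degrees of freedom remain. SDs are over 3 libraries per group. No 2 libraries had equal gene values (0 genes). The members, lists and tests were chosen with earlier results of these data known. Library values are given for members with an unadjusted p under 0.05 and for the head of each role group, and up to 4 genes per direction are named from each wider list. Promoters came from RefSeq, GRCm38.p6, the same build as mm10. The model was tested on simulated data. In all, 16 other settings were tried: pseudocount, filter, scaling, variance model, transcript choice and libraries left out.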

Additional observations from a re-analysis of the deposited data

How the results depend on the processing

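In all 16 alternatives, 0 members passed an adjusted p of 0.05 in limma (smallest 0.0905), while 6 to 11 were lower at an unadjusted p under 0.05; over all genes, calls ranged from 0 to 52 against 21. Of all tested genes, 2.89% to 5.15% were lower at an unadjusted p under 0.05 across the 16. Leaving out 1 library gave 6 to 9 lower members and 0 to 1 higher, the 1 being Ddit3 without WT replicate 1. In those fits 2.89% to 4.75% of all tested genes were lower and 4.22% to 8.94% higher, with the 8.94% also found without WT replicate 1. Leaving out 1 library moved the chaperone median between -0.43 (without WT replicate 1) and -0.18 (without WT replicate 3), and the ERAD median between -0.32 and -0.14 for the same libraries; the cause was not tested. Calr, Dnajb11, Sdf2l1 and Pdia6 kept an unadjusted p under 0.05 in all 16. Sec61b and Sec61a1 lost it only when WT replicate 1 and fat-1 replicate 3 were both left out. Pdia3 lost it in 7 alternatives, Hsp90b1 in 6, Creld2 in 3 and Edem1 in 9. The sign held in all 16 for 28 members and in the 15 that could be run for Asns and Ern1, which miss the mean filter of 5 FPKM; it changed in at least 1 for 12, and the PERK median took both signs. No paired analysis was possible because the titles of the fat-1 samples carry no number shared with a WT title; their replicate numbers were given here in order and only name the samples. With FPKM, the precision of low members such as Asns and Ern1 cannot be stated from depth.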
